A study of Rattus norvegicus with 26 samples.

Results

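Trem2, the adaptor genes Tyrobp, Fcer1g and Hcst, the receptor gene Cd33 and the kinase gene Syk were examined in cultured rat brain cells and in mixtures of their RNA. They were found by symbol in the array's probe annotation and are 6 of 14217 annotated genes. They were selected on measured values, namely their levels on microglial and oligodendrocyte culture arrays and the difference between the NAO and NAOM mixtures. Those values are therefore given as a description, with no test.

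TREM2 is a surface receptor of microglia and other myeloid cells that binds lipids and lipoproteins and has almost no signalling tail of its own. It is held at the membrane by TYROBP (DAP12), an adaptor whose ITAM, a paired tyrosine motif, is phosphorylated and then binds the kinase SYK. FCER1G, the common gamma chain of Fc receptors, is the other ITAM adaptor here, whereas HCST (DAP10) carries a motif that recruits phosphoinositide 3-kinase and no ITAM. CD33 is a sialic acid binding receptor that, in human cells, inhibits such signalling.

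Expression was measured on 26 Affymetrix arrays carrying biotin-labelled total RNA of cortical cells from newborn (postnatal day 1) rats. Neuronal, astrocytic, oligodendrocytic and microglial primary cultures had 4 arrays each. Mixtures of culture RNA had 2 replicates each. In NA1, NA2 and NA3 the neuronal fraction was 0.25, 0.5 and 0.75, and astrocyte RNA filled up the mixture. The NAO mixture combined neuronal RNA (0.5) with equal parts of astrocyte and oligodendrocyte RNA (0.25 each). In NAOM these equal parts were reduced to 0.2 each and microglial RNA made up 0.1 of the total. No genotype or treatment is labelled, and neither the strain nor how each culture was purified is given in the sources used here. Replicate 1 of a mixture drew on neuron 1, astrocyte 1, oligodendrocyte 2 and microglia 2, and replicate 2 on neuron 2, astrocyte 4, oligodendrocyte 4 and microglia 3, as far as each was part of it. Whether replicate cultures came from separate litters is not stated, so p-values measure only the spread between these arrays. Microglial replicate 4 carries a description that reads as a mixture but a cell type label of microglia, and was kept as a culture.

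The promoters of Trem2 and Cd33 are shown because both genes encode receptors. Across the 16 culture arrays their levels had a Pearson's r of 0.952, inside the range of 0.796 to 0.995 for all pairs of the 6 genes. Promoters were taken from RefSeq (rat build GRCr8), which matched 4 of the 6 genes (Trem2, Hcst, Cd33, Syk), with 5 start sites. They were searched on both strands for GAGGAA, the core of the site bound by the myeloid factor Spi1, read as TTCCTC on the other strand. The letters stood in 2 of the 5 windows of 250 bases before the start, those of Trem2 and Syk, and in 23.3% of all 33469 promoters. All 250 bases of the Syk window and of the second Cd33 window lay inside an annotated gene, as did 198 of Hcst and 18 of Trem2. The stretches below lie on the minus strand, read 5′ to 3′, and any match is in capitals. That of Trem2 is cut to the 232 bases outside the annotated gene (chr9:20151798-20152029), and that of Cd33 is the whole window of its upstream start (chr1:103086688-103086937).
Trem2: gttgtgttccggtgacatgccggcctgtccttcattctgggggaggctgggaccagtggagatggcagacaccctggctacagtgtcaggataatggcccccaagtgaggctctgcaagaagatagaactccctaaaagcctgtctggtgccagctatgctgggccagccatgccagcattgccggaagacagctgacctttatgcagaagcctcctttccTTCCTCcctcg
Cd33: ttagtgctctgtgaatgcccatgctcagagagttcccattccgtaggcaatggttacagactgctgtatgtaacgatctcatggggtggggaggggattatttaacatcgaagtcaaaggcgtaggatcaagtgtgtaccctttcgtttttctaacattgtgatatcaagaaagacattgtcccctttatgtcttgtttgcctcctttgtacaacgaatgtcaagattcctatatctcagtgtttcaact
Trem2 had 1 match in the stretch shown and Cd33 had 0. Tyrobp and Hcst are neighbours on the rat GRCr8 map.

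The deposited values are log2 expression made with Robust Multi-array Average (RMA). Array medians were 5.25 to 5.31 in the cultures and 5.33 to 5.41 in the mixtures. The culture labels were checked against marker genes. Of 9 astrocyte markers, 8 lay above the array median on every astrocyte array, 6 on every neuronal array and 6 on every oligodendrocyte array. Their mean log2 levels were 9.85 to 11.06 on astrocyte arrays and 7.42 to 9.62 on neuronal arrays. The mean of 8 fibroblast and endothelial markers was 7.10 on astrocyte array 4 and 5.03 to 5.19 on the other astrocyte arrays. Of 11 oligodendrocyte markers, 9 lay above the array median on every oligodendrocyte array, and 9 did so on every microglial array, at mean levels of 9.20 to 11.02 and 7.07 to 8.45. Of 15 microglial markers, 13 lay above the median on every oligodendrocyte array and 14 on every microglial array. Their mean log2 level was 7.86 on oligodendrocyte array 1, 8.78 to 8.93 on the other oligodendrocyte arrays and 10.2 to 10.9 on the microglial arrays, against 4.52 to 4.68 on neuronal arrays. Of 9 T, NK and B cell markers, 0 lay above the median on every array of any culture, and of 10 monocyte and border macrophage markers 2 did so in oligodendrocyte and in microglial cultures. In bulk RNA, fewer cells of a type and less RNA per cell cannot be told apart, and how far microglia-type RNA in the oligodendrocyte cultures sets the values below was not tested.

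Every one of the 6 genes was higher on all 4 microglial arrays than on any oligodendrocyte array, and higher on all 4 oligodendrocyte arrays than on any astrocyte array. Over all probe sets, 14.8% showed the first order and 17.4% the second. The genes differed in how much of the microglial level the oligodendrocyte cultures reached, and that share did not divide adaptors from receptors. It was 55.0% for the adaptor gene Fcer1g, 39.4% for the adaptor gene Tyrobp, 26.8% for Syk, 18.7% for Cd33, 8.92% for the adaptor gene Hcst and 6.89% for Trem2. A share is 2 to the power of the difference in mean log2 level, as a percentage.

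Trem2, read by the brighter of its probe sets, had log2 levels of 11.34, 11.73, 11.97 and 11.70 on microglial arrays 1 to 4 and of 7.39, 8.56, 7.28 and 8.07 on the oligodendrocyte arrays. The means were 11.68 ± 0.26 and 7.82 ± 0.60 (SD, n = 4), a 14.5-fold difference that only 11 of 14217 genes exceeded. The closest arrays of the 2 cultures lay 2.77 apart on the log2 scale. Astrocyte arrays read 5.44, 6.21, 6.33 and 5.95 and neuronal arrays 5.45, 5.92, 6.0 and 5.54, so these cultures overlapped. The other Trem2 probe set had a lower neuronal mean (4.14) and gave a microglial excess of 4.13 on the log2 scale and a share of 5.70%.

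Cd33 had log2 levels of 10.41, 10.85, 10.99 and 11.03 on the microglial arrays and 7.73, 8.64, 8.44 and 8.80 on the oligodendrocyte arrays. Its means were 10.82 ± 0.28 and 8.40 ± 0.47 (SD, n = 4), a difference of 2.42 on the log2 scale or 5.35-fold. On astrocyte arrays it stayed between 4.33 and 4.56 and on neuronal arrays between 4.26 and 4.51. The oligodendrocyte cultures thus stood 15.4-fold above the astrocyte cultures for Cd33, against 3.58-fold for Trem2 by its brighter probe set (means of 7.82 and 5.99). By the other Trem2 probe set the gap was wider, with means of 7.21 in oligodendrocyte and 4.33 in astrocyte cultures.

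Tyrobp varied little between microglial arrays, with log2 levels of 11.09, 11.21, 11.07 and 11.06, and read 9.44, 10.14, 9.81 and 9.66 on the oligodendrocyte arrays. The means of 11.10 ± 0.07 and 9.76 ± 0.30 (SD, n = 4) differed 2.54-fold, and 556 genes had a larger excess in microglia. Astrocyte arrays 1 to 4 read 3.69, 5.50, 5.53 and 4.08, with arrays 2 and 3 apart from the others. The oligodendrocyte mean was 33.4-fold above the astrocyte mean.

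Fcer1g had log2 levels of 13.07, 13.05, 13.17 and 13.25 on the microglial arrays and 12.25, 12.63, 12.14 and 12.06 on the oligodendrocyte arrays. The means of 13.13 ± 0.09 and 12.27 ± 0.25 (SD, n = 4) differed 1.82-fold, and 0.42 on the log2 scale separated the closest arrays. These levels lie near the highest deposited value, 14.36, and whether that narrows the difference was not tested. Astrocyte arrays read 5.30, 7.40, 7.52 and 4.98, again with arrays 2 and 3 above the others. The oligodendrocyte mean was 62.8-fold above the astrocyte mean.

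Hcst, although its product is an adaptor, followed the pattern of Trem2. Its log2 levels were 8.28, 9.29, 8.76 and 8.43 on the microglial arrays and 4.43, 5.28, 5.73 and 5.38 on the oligodendrocyte arrays, an 11.2-fold difference between means of 8.69 ± 0.45 and 5.20 ± 0.55 (SD, n = 4). Neuronal arrays read 3.82 to 4.02, so oligodendrocyte array 1 lay within 1 log2 unit of the neuronal level. With the neuronal mean of each gene subtracted on the linear scale, an alternative added after the data were seen, the share of Hcst was 5.60%, that of Trem2 5.75% and that of Syk 21.9%.

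Syk had log2 levels of 8.53, 8.65, 8.49 and 8.81 on the microglial arrays and 6.23, 7.30, 7.04 and 6.32 on the oligodendrocyte arrays. The means of 8.62 ± 0.14 and 6.72 ± 0.53 (SD, n = 4) differed 3.73-fold. Its astrocyte arrays lay between 5.01 and 5.08.

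**Figure D1:**
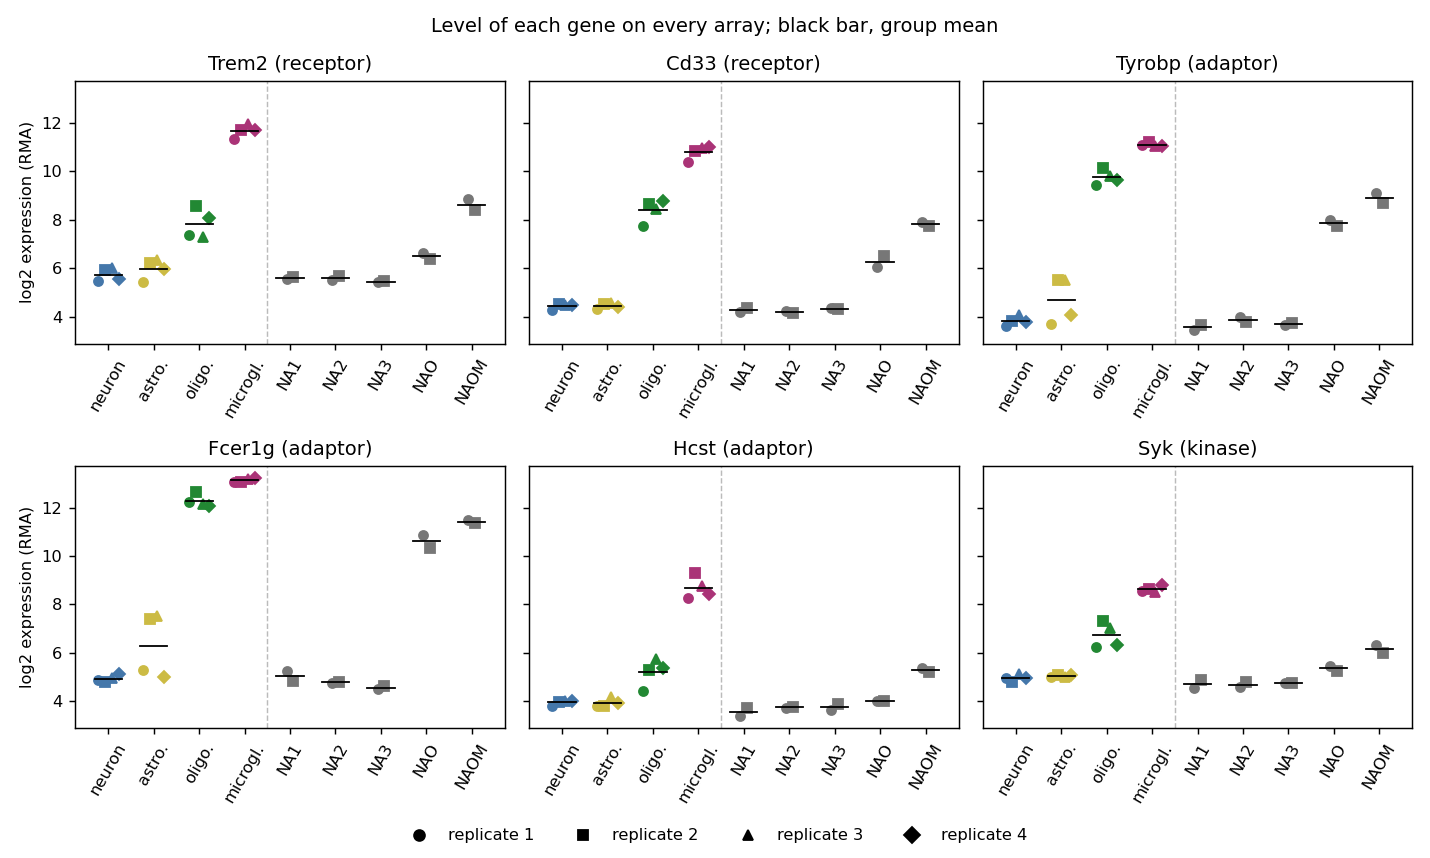
Log2 expression (RMA, vertical axis) of the 6 genes on each of 26 arrays, grouped by culture and by mixture, with replicates as symbols and the group mean as a black bar. Microglial arrays lie above oligodendrocyte arrays for every gene, while Tyrobp and Fcer1g stand high on oligodendrocyte arrays. Both genes are higher on astrocyte arrays 2 and 3 than on the other astrocyte arrays.

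The order of the shares was compared array by array, each oligodendrocyte array being set against the microglial mean. Fcer1g ranged from 47.5 to 70.8%, Tyrobp from 31.5 to 51.3% and Syk from 19.0 to 39.9%. Cd33 ranged from 11.8 to 24.6%, Hcst from 5.21 to 12.8% and Trem2 from 4.71 to 11.5%. Fcer1g was first and Tyrobp second on all 4 arrays, and Hcst and Trem2 held the last 2 places on all 4. Neighbours in the order overlapped in their ranges. Trem2 and Hcst changed places between arrays, as did Cd33 and Syk, while Cd33 stayed above Hcst on each array. Oligodendrocyte array 2 had the highest share of Fcer1g, Tyrobp, Syk and Trem2, whereas Hcst peaked on array 3 and Cd33 on array 4.

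The same measure was taken for the 15 microglial markers, none of which is among the 6 genes. Their median share was 24.3% and their range 3.31 to 87.1%, and the median of the 6 genes, 22.8%, lay inside it. Tyrobp's share was exceeded by 4 markers (Ly86, Itgam, Tmem119 and Aif1), and Fcer1g's by all of these but Aif1. Of the 15 markers, 1 had a smaller share than Trem2, namely the receptor gene Gpr34 (3.31%), and P2ry12, another microglial receptor gene, was next to it at 7.89%. A like share does not mean a like pattern. Oligodendrocyte cultures lay above astrocyte cultures by only 0.92 log2 units for Tmem119, 0.70 for Gpr34 and 0.46 for Cx3cr1. For the other markers this step was 1.77 to 6.17, and for Fcer1g it was 5.97. In log2 units, the median microglial excess was 2.16 for the 6 genes, 2.04 for the markers and 0.06 for all genes.

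**Figure D2:**
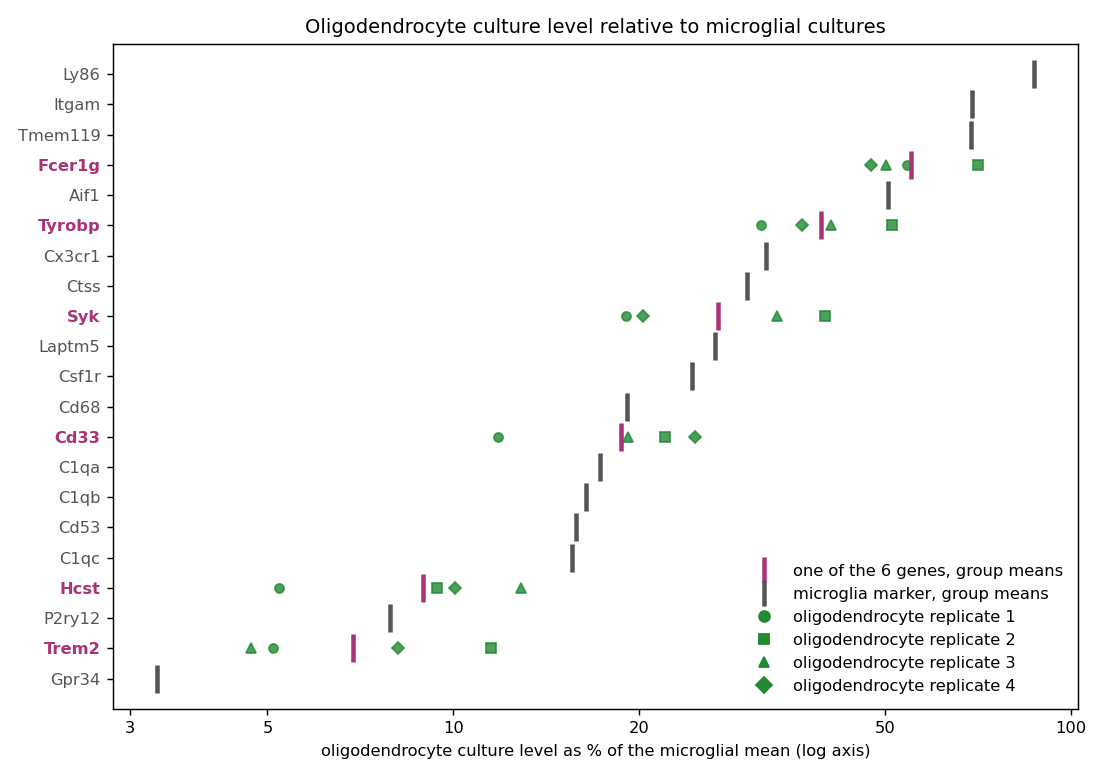
Level in oligodendrocyte cultures as a percentage of the microglial mean (log axis) for the 6 genes, in bold with the 4 oligodendrocyte arrays as symbols and group means as bars, and for 15 microglial markers with group means as grey bars. Trem2 and Hcst fall at the low end beside P2ry12 and Gpr34, and Tyrobp and Fcer1g at the high end beside Aif1 and Tmem119.

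Likeness of pattern was described by Pearson's r over the 16 culture arrays, among 6912 genes that spanned at least 1 log2 unit. These arrays form 4 groups, so r mostly reflects group means. Among the 6 genes, r ran from 0.796 for Fcer1g with Hcst to 0.995 for Tyrobp with Fcer1g. Trem2 reached 0.979 with Hcst and 0.890 with its own adaptor gene Tyrobp. The genes most like Trem2 were Gnpda1 (0.990), Lyl1, Alpk3 and C130050O18Rikl (each 0.988) and P2ry12 (0.987). Those most like Tyrobp were Lcp1 (0.998), Fcer1g (0.995), Aif1 (0.993), Csf1r (0.992) and Lilrb4 (0.992).

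The neuronal and astrocyte cultures gave a comparison that the choice of genes had not used. Differences were fitted with limma across 31042 probe sets with Benjamini-Hochberg adjustment, and a call needed an adjusted p under 0.05 and a log2 difference of 1 or more. In this contrast 24.0% of probe sets were called in either direction, and 1 of the 6 genes was. Fcer1g was lower in neurons by limma, with a log2 difference of -1.36 ± 0.44 (SE) and an adjusted p of 0.0191. Tyrobp had a difference of -0.89 ± 0.33 (SE) and a limma adjusted p of 0.0371, under the minimum size. The other 4 genes had limma adjusted p-values of 0.494 to 0.952.

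The Fcer1g call rested on astrocyte arrays 2 and 3. The mean of these arrays exceeded that of arrays 1 and 4 by 2.32 on the log2 scale for Fcer1g and by 1.63 for Tyrobp, but by 0.57 for Trem2, 0.18 for Cd33 and 0.13 for Hcst, and Syk differed by 0.0012. The mean of the 15 microglial markers was 5.95 and 6.02 on arrays 2 and 3 and 4.67 and 4.73 on arrays 1 and 4, and 9 of the 15 were over 1 log2 unit higher. The part of microglia-type RNA in the Fcer1g difference was not tested. Without array 2 the Fcer1g difference was -0.998, without array 3 it was -0.96 and without both it was -0.21, and the call was lost each time (limma adjusted p = 0.0745, 0.0723 and 0.379).

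In the NA mixtures, made from astrocyte arrays 1 and 4, the slope on the neuronal fraction was called in 14.3% of probe sets and in 0 of the 6 genes by limma, with 1 (Fcer1g) at an unadjusted p under 0.05. Fcer1g read 5.24 and 4.82 in NA1, 4.75 and 4.80 in NA2 and 4.50 and 4.61 in NA3. The parent arrays of replicate 1 read 4.87 (neuron 1) and 5.30 (astrocyte 1), and those of replicate 2 read 4.80 (neuron 2) and 4.98 (astrocyte 4). In both replicates Fcer1g in NA3 thus lay below both parents, which the mixed fractions alone do not give, and the reason was not tested. The slope of Fcer1g was -0.95 ± 0.30 log2 units per unit of fraction (SE, limma adjusted p = 0.0953). Without the replicate 2 series, which left 1 array per mixture, the slope was -1.48 ± 0.33 (SE). The other slopes had limma adjusted p-values of 0.445 to 0.903.

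Where oligodendrocyte RNA joined neuronal and astrocyte RNA, the ITAM adaptor genes showed the largest difference of the 6. From NA2 to NAO, Fcer1g went from 4.75 to 10.87 in replicate 1 and from 4.80 to 10.33 in replicate 2, and Tyrobp from 3.96 to 7.97 and from 3.78 to 7.77. Cd33 went from 4.24 to 6.04 and from 4.16 to 6.50, and Trem2, by its brighter probe set, from 5.53 to 6.63 and from 5.70 to 6.39. The other Trem2 probe set showed a larger step in both replicates, from 4.21 to 5.74 and from 3.85 to 5.51. Syk was higher by 0.90 and 0.49 on the log2 scale and Hcst by 0.29 and 0.24.

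With microglial RNA at a fraction of 0.1, all 6 genes were higher in NAOM than in NAO in both replicates, as were 29.4% of all probe sets. Trem2 showed the largest step of the 6, from 6.63 to 8.85 and from 6.39 to 8.39, or 2.11 ± 0.15 on the log2 scale (SD, n = 2). Fcer1g, already high in NAO, went from 10.87 to 11.50 and from 10.33 to 11.34, and Tyrobp from 7.97 to 9.11 and from 7.77 to 8.69. Their mean steps were 0.82 ± 0.27 and 1.03 ± 0.15 (SD, n = 2). Cd33 went from 6.04 to 7.93 and from 6.50 to 7.73, Hcst from 4.02 to 5.38 and from 4.00 to 5.19, and Syk from 5.46 to 6.32 and from 5.26 to 6.01.

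Steps expected from the parent arrays were computed by adding their linear values in the stated fractions. The expected mean steps were 1.97 for Trem2, 1.28 for Cd33, 0.78 for Tyrobp, 0.57 for Fcer1g and 0.68 for Syk, each below the measured mean, and 1.74 for Hcst, above its measured 1.27 ± 0.13 (SD, n = 2). For Trem2, Cd33 and Syk the excess came from replicate 1: in replicate 2 the measured steps of 2.01, 1.23 and 0.75 lay below the expected 2.14, 1.27 and 0.78. Measured levels of NAOM lay -0.95 to 0.54 log2 units from the expected ones over 12 values, with a median of -0.18. Hcst fell short most, by 0.95 and 0.78, and Fcer1g alone was above expectation in NAO and NAOM in both replicates, by 0.22 and 0.24 in NAO and 0.44 and 0.54 in NAOM. Mixture and culture arrays differed in their medians as given above.

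The mixtures also yield an oligodendrocyte share, by solving for the oligodendrocyte and microglial levels that NAO and NAOM require with the parents' neuronal and astrocytic values. For Trem2 it was 7.05 and 5.73% in the 2 replicates, against 11.1 and 6.68% from the parent arrays themselves. For Hcst it was 8.27 and 7.87% against 6.20 and 9.59%. For Tyrobp it was 27.6 and 34.8% against 47.8 and 37.6%, and for Fcer1g 53.0 and 32.3% against 74.8 and 46.3%. Syk gave 20.1 and 20.7% against 39.2 and 22.1%, and Cd33 10.8 and 21.5% against 21.5 and 21.9%. Trem2 and Hcst thus had the lowest shares in both replicates of the mixtures too. For Hcst the NAO levels of 4.02 and 4.00 lay at the neuronal level (3.82 to 4.02), so its solved share rests on values near background. Its solved oligodendrocyte levels were 4.49 and 4.12, against 5.28 and 5.38 on the parent arrays. All these shares come from RNA of the parent cultures and use the parents' neuronal and astrocytic values.

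**Figure D3:**
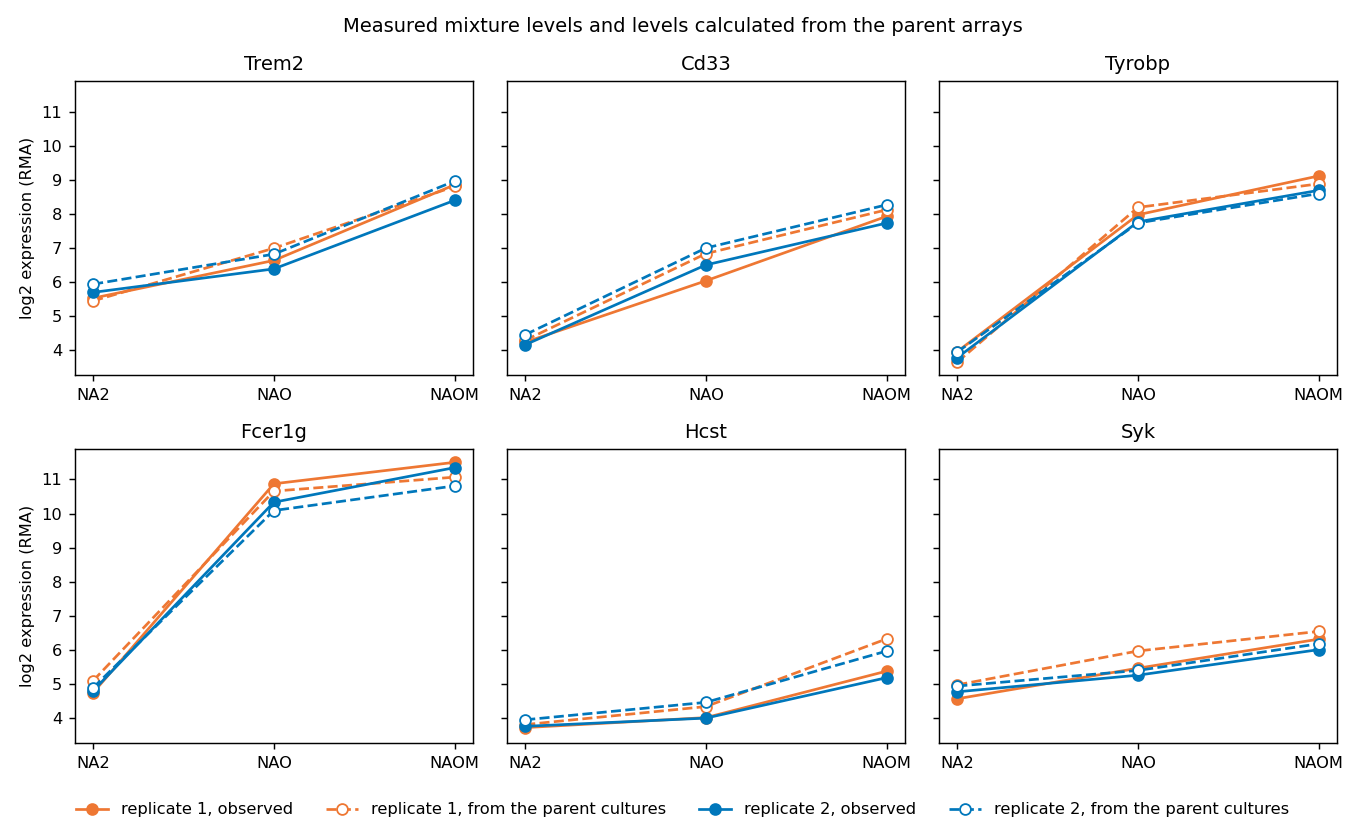
Log2 expression (RMA, vertical axis) of the 6 genes in NA2, NAO and NAOM, with filled points and solid lines for measured values and open points and dashed lines for values calculated from the parent arrays, in 1 colour per replicate. Fcer1g and Tyrobp step up with oligodendrocyte RNA (NA2 to NAO), Trem2 (brighter probe set) and Hcst mainly with microglial RNA (NAO to NAOM). Measured Hcst in NAOM lies below the calculated level.

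Other genes of the pathway were taken from 4 lists of 98 genes, of which 73 were measured. The lists were chosen with earlier results of these data known, and each listed gene was read by its brightest probe set. The percentages beside their counts cover all probe sets, also those without a symbol, so an excess over them is a description only. Between microglial and oligodendrocyte cultures, 36 of the 73 were called higher and 6 lower by limma, where 4.29% of all probe sets were called higher and 6.27% lower. The list median was 1.10 on the log2 scale, against 0.07 for all probe sets. Between oligodendrocyte and astrocyte cultures, which share the oligodendrocyte arrays with the first contrast, 35 were called higher and 4 lower, against 7.85% and 8.04% of probe sets. In that contrast the list median was 0.93, against 0.01 for all probe sets.

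Of 26 kinases and signalling genes downstream of ITAMs, 14 were higher in microglia and 1 was lower. Rasgrp3, an activator of Ras-family GTPases, had the largest difference, 4.93 ± 0.39 (SE, limma adjusted p = 5.03e-07). It read 9.91 to 10.61 on the microglial arrays and 4.51 to 5.67 on the oligodendrocyte arrays. Tec, a kinase, was higher by 3.06 on the log2 scale, the adaptor genes Blnk and Lcp2 by 2.34 and 2.27, and the transcription factor gene Nfatc1 by 2.20. Fyn, a Src-family kinase known from oligodendrocyte maturation, was lower by 2.16 ± 0.28 (SE, limma adjusted p = 4.77e-05).

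Of 7 measured receptors that use ITAM adaptors or an ITAM of their own, or are their Fc receptor relatives, 4 were higher in microglia: Fcgr2b by 2.88, the beta-glucan receptor gene Clec7a by 2.13, Lilra5 by 1.15 and Fcgr1a by 1.10. Fcgr2b itself encodes an inhibitory Fc receptor. Of these calls, 3 depended on 1 array: without microglial array 4, Fcgr2b (2.64), Lilra5 (0.80) and Fcgr1a (0.74) were no longer called. Fcgr2b also lost its call without any other single microglial array and without oligodendrocyte array 1 (1.93) or 2 (2.38), and Fcgr1a without oligodendrocyte array 1 (0.84). Clec7a stayed called but had a difference of 1.41 without that array. The receptor gene Fcgr3a, whose product pairs with the Fcer1g chain, differed by 0.64 ± 0.41 between these cultures (SE, limma adjusted p = 0.269) and was 26.6-fold higher in oligodendrocyte than in astrocyte cultures. It was named for this pairing after its values were seen.

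Of 22 inhibitory receptors and phosphatases, the functional counterpart of the ITAM genes, 10 were higher in microglia and 3 lower. The receptor genes Clec12a, Cd300a and Sirpa were higher by 2.47, 2.39 and 2.30, and Inpp5d (SHIP1), a phosphatase acting on the lipid product of phosphoinositide 3-kinase, and Dok1, an adaptor, by 2.33 and 2.18. Siglec5, in the same receptor family as Cd33, ran against it. Its levels were 6.14, 6.19, 5.72 and 8.14 on microglial arrays 1 to 4 and 8.80, 9.34, 8.59 and 8.64 on the oligodendrocyte arrays, with no overlap, a difference of -2.29 ± 0.37 (SE, limma adjusted p = 0.000303). Pilra, another inhibitory receptor gene, read 5.86, 5.08, 5.33 and 9.24 on the microglial arrays and 10.18, 10.22, 10.79 and 8.64 on the oligodendrocyte arrays. Its difference was -3.58 ± 0.69 (SE, limma adjusted p = 0.00131), although microglial array 4 lay above oligodendrocyte array 4. Without microglial array 4 the differences were -2.82 for Siglec5 and -4.53 for Pilra. The phosphatase gene Ptpn11 was lower by 1.28.

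Of 18 genes listed as TREM2 ligands, shedding enzymes or otherwise linked to TREM2, 8 were higher in microglia and 2 lower. The lipoprotein lipase gene Lpl was higher by 3.36, the receptor kinase gene Axl by 3.08, the lysosomal gene Cd68 by 2.39, the growth factor receptor gene Csf1r by 2.04 and the secreted phosphoprotein gene Spp1 by 1.90. Cd68 and Csf1r are also in the list of microglial markers. The TREM2 ligand gene Clu was lower by 2.45 and the tetraspanin gene Cd9 by 1.16. The calls for Spp1 and Cd9 were near the threshold (limma adjusted p = 0.0435 and 0.0464) and rested on single arrays. That of Spp1 was lost without microglial array 1, 2 or 3 and without oligodendrocyte array 1 (1.98) or 4 (1.21), and that of Cd9 without any 1 of the 8 arrays.

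The named genes differed in their step between oligodendrocyte and astrocyte cultures, as the 6 genes did. Csf1r, Cd68, Blnk and Lcp2 were higher in oligodendrocyte than in astrocyte cultures by 4.58, 4.00, 3.51 and 3.19 on the log2 scale. Rasgrp3, Tec and Lpl, with larger differences between microglial and oligodendrocyte cultures, had values of -0.87, -0.30 and 0.67 in this contrast and were not called. Pilra, Siglec5 and Fyn, called lower in microglia, were higher in oligodendrocyte than in astrocyte cultures by 6.24, 5.68 and 3.19.

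**Figure D4:**
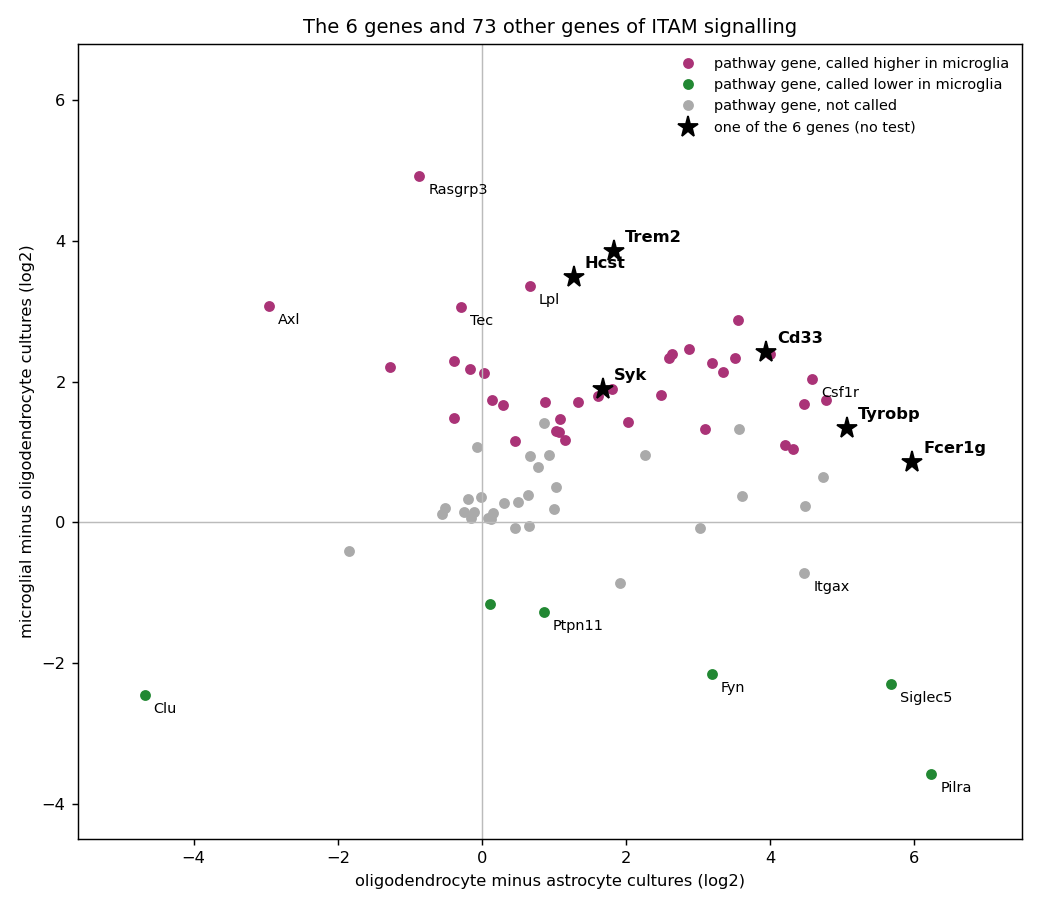
Difference between microglial and oligodendrocyte cultures (vertical axis, log2) against the difference between oligodendrocyte and astrocyte cultures (horizontal axis, log2) for the 6 genes (stars, not tested) and 73 pathway genes (points, coloured by the limma call on the vertical axis). Both axes contain the oligodendrocyte arrays. Trem2 and Hcst lie high, Tyrobp and Fcer1g to the right, and Pilra, Siglec5 and Fyn at the lower right.

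In the mixtures, 2 of the 73 genes were called higher in NAOM than in NAO by limma and 0 lower, where 0.0419% of all probe sets (13) were called higher. They were Csf1r, higher by 1.47 ± 0.13 (SE, adjusted p = 0.0207), and Lcp2, higher by 1.31 ± 0.14 (SE, adjusted p = 0.0485). With the replicate number as a block, since mixtures of 1 number share their parents, 4 were called, namely these and Lpl (1.77 ± 0.11, SE, adjusted p = 0.00442) and Cd68 (1.70 ± 0.19, SE, adjusted p = 0.0253). Without NAO array 2 the unblocked fit called 1 gene, and without any of the other 3 NAO and NAOM arrays it called 0.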

How the data were processed

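Log2 expression values had been made and deposited by the authors with RMA in the affy package, per the submitters' processing notes, without versions. Whether all 26 arrays were normalized together is not given in the sources used here. Of 31099 probe sets, 57 controls were left out, and the other 31042 were tested with no filter. A gene was read by its probe set with the highest mean. Gene names came from the platform annotation, where 20826 probe sets had 1 symbol, 436 several and 9780 none.

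The 16 culture and 10 mixture arrays were fitted separately with limma 3.58.1 (R 4.3.3), with 1 mean per group, or a slope for NA1 to NA3, and p-values adjusted over all probe sets; mixture contrasts had no minimum difference. Tables and figures used Python 3.11.15, pandas 2.3.3, numpy 2.4.6 and matplotlib 3.10.9. The genes and lists were chosen with earlier results of these data known. The text names the 6 genes, the 5 genes most like Trem2 and Tyrobp, and up to 5 genes per list and direction with the largest called difference, plus those stated. The number of arrays limits the precision.

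Replicate numbers did not pair the cultures (residual r from -0.107 to 0.178, 5 of 24 above 0.1) and did pair the mixtures (0.381 to 0.873, 20 of 20). As alternatives, arrays were centred on their medians, cultures or mixtures were quantile normalized alone, replicates were blocked, and the fits were repeated with a trended robust variance, removal of the dimmest 25% of probe sets, no minimum difference, other probe sets, background subtraction and leaving out arrays.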

Additional observations from a re-analysis of the deposited data

Results flagged for a closer look

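Among 33 named genes in 4 cultures (132 groups of 4 arrays), 7 had an array whose distance from its nearest neighbour exceeded 0.829 of the group's range. Chance gives such a gap in about 1 of 20 groups, so 7 of 132 is near the number that chance gives. None of the 6 genes was among them. Microglial array 4 read 11.42 for Fcgr1a against 9.91 to 10.03 on the other 3 arrays, and 9.68 for Inpp5d against 9.42 to 9.45. Microglial array 3 read 10.96 for Blnk against 10.78 to 10.80. Astrocyte array 4 read 6.75 for Tec against 6.19 to 6.26, 10.88 for Clu against 13.11 to 13.43 and 10.13 for Cd9 against 11.93 to 12.12. Neuron array 1 read 3.78 for Pilra against 3.42 to 3.46.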

How the results depend on the processing

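All 6 genes stayed higher on every microglial than on every oligodendrocyte array, and higher in NAOM than in NAO, under each alternative run. Leaving out arrays cannot undo such an order, and the genes were selected on these values, so this is a description only. The median share was 20.6 to 25.9% with single arrays left out, and over 14 settings on the brighter probe set or the mean of probe sets the share of Fcer1g was 50.6 to 58.8%, of Tyrobp 36.1 to 42.5%, of Syk 21.9 to 30.0%, of Cd33 17.0 to 21.8%, of Hcst 5.60 to 10.7% and of Trem2 5.75 to 7.82%. The other Trem2 probe set alone gave 5.70%. Hcst lay below Trem2 with each array's 5th percentile subtracted (6.88 and 7.0%) and with the neuronal means subtracted (5.60 and 5.75%). Of the 6 genes, 1 was called between neurons and astrocytes in the main fit, 2 with no minimum difference (Tyrobp joins), 0 to 2 with single arrays left out and 0 without astrocyte arrays 2 and 3, left out after seeing the data. The NA slope called 0 in the main fit, and that of Fcer1g was steeper without replicate 2 (-1.48), with 1 array left per mixture. Pathway genes higher in NAOM than in NAO numbered 2, against 4 with the replicate block, 1 without the dimmest 25% of probe sets, 1 with quantile normalization of the mixtures alone and 0 to 1 with single arrays left out, which leaves a group with 1 array whose spread is taken from the others. Pathway genes higher in microglia than in oligodendrocyte cultures numbered 31 to 39 with single arrays left out, and 26 without microglial array 4 and oligodendrocyte array 1, left out after seeing the data; those higher in oligodendrocyte than in astrocyte cultures numbered 31 to 36. The cause of these shifts was not tested. For the cultures, the replicate block left the counts at 1 of the 6 genes, 36 and 35, but the call of Cd9 was lost (adjusted p = 0.0624 in limma). Of 560 values for single genes, 31 lost their call, 3 gained one, 1 (the share of Hcst less its neuronal mean) moved by more than the spread between arrays and 0 reversed.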

Other observations

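Microglial array 4 lay above the other 3 microglial arrays for several surface receptor genes. Itgax, the integrin gene of CD11c, read 10.30 there and 6.62 to 9.0 on the others, against 8.68 to 9.28 on the oligodendrocyte arrays. Fcgr3a read 11.55 there and 9.56 to 10.09 on the others, and the oligodendrocyte arrays read 8.76 to 10.06. Pilra and Siglec5 were high there too, as given above. Among the 6 genes, array 4 was also the highest microglial array for Fcer1g (13.25 against 13.05 to 13.17), Cd33 (11.03 against 10.41 to 10.99) and Syk (8.81 against 8.49 to 8.65). It was the lowest for Tyrobp (11.06 against 11.07 to 11.21) and within the range of the others for Trem2 and Hcst. These genes were picked after their values were seen, and no test was run.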
